A study of Mus musculus with 11 samples.

Results

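The suppressors of cytokine signalling (SOCS) were examined as a gene family in BV2 cells, a transformed microglial line of mouse (strain C57BL/6), after exposure to amino-terminal fragments of human apolipoprotein E. The family was taken by gene symbol as Cish and Socs1 to Socs7, and all 8 genes had a row among the 36529 genes counted in each sample. Total RNA was sequenced from 11 samples in 4 groups. The labelled ApoE4 group (3 samples) received nApoE4, residues 1 to 151 of ApoE4 with a histidine tag, at 25 µg/ml for 5 h, and was set against 3 samples labelled ControlA. The ApoE3 group (2 samples) received the same stretch of ApoE3 (nApoE3), which differs from nApoE4 at a single residue, at the same dose and time, and was set against 3 samples labelled ControlB. The labels give PBS as the vehicle of the controls and the methods give conditioned media, so which was added is not known. The study speaks of independent measurements and trials that were averaged, but neither the labels nor the methods say whether these were separate cultures, so p-values measure only the spread between these samples, which may be partly technical. Each fragment was run with its own controls, so fragment and experiment cannot be told apart in any difference between the fragments.

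SOCS proteins are the feedback brake of cytokine receptors that signal through Janus kinases (JAKs) and STAT transcription factors. Activated STATs enter the nucleus and switch on several SOCS genes, and the proteins made bind phosphorylated receptors or the kinases through an SH2 domain and recruit a ubiquitin ligase through the SOCS box. In microglia and macrophages Socs1 and Socs3 are known as limits on interferon and interleukin responses, while Socs4 to Socs7 are better known for growth factor and insulin receptors.

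Between 39732710 and 44162511 reads were counted on genes in the samples of the nApoE4 experiment and between 55809688 and 69768666 in those of the nApoE3 experiment, and 3 reads corresponded to 0.0425 to 0.0756 CPM (reads on a gene per 1000000 reads counted, after scaling for composition). Of 15 markers of microglia and macrophages, 10 were above 1 CPM in every sample. Aif1, Cx3cr1, P2ry12 and Sall1 were under 1 CPM throughout, with P2ry12 listed at 0. The summed level of the list was 3929 to 4351 CPM in ControlA, 3996 to 4064 with nApoE4, 2862 to 2986 in ControlB and 3377 to 3394 with nApoE3. Of 18 markers of other brain and immune cells, 15 were under 1 CPM in every sample and 2, both from the oligodendrocyte list, were above it. Their sum was 10.9 to 15.9 CPM in the nApoE4 experiment and 24.7 to 27.7 CPM in the nApoE3 experiment, and the part of this in the values below was not tested. A 0 in these tables is not proof of absence, because 10814 of the 36529 genes (29.6%) had no read in any sample and B2m, which nearly every nucleated cell transcribes, was among them. None of the 8 SOCS family genes was at 0. In bulk RNA, fewer cells making a transcript and less transcript in each cell cannot be told apart.

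The sequence before the transcript start was held for 4 of the 8 genes (RefSeq, GRCm38.p6), and is shown because several SOCS genes are textbook targets of STATs and interferon response factors that bind close to their start. Each runs 5′ to 3′ on the strand of the gene from 250 bases before the RefSeq start used here, and that of Cish goes on to 20 bases past it. Capitals mark matches to TTCNNNGAA, the letters of a STAT-type gamma-activated site, or to GAAANNGAA, the core letters of an interferon-stimulated response element.
Cish, chr9:107296409-107296678, plus strand: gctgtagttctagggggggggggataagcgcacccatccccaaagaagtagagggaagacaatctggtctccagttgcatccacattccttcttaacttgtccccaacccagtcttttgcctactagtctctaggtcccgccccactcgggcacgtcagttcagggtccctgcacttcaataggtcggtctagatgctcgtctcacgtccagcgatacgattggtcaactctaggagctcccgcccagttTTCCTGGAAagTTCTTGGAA
Socs3, chr11:117969367-117969616, minus strand: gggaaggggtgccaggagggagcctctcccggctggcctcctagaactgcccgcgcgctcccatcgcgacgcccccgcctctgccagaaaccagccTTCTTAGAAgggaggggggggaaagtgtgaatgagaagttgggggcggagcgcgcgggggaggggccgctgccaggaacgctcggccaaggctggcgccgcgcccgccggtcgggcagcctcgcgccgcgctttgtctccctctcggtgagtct
Socs1, chr16:10785537-10785786, minus strand: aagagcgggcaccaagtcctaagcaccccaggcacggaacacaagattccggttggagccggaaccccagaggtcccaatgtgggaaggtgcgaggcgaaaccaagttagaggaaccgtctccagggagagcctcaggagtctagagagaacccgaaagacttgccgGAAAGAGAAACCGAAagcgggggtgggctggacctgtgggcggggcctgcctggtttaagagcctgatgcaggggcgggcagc
Socs4, chr14:47276670-47276919, plus strand: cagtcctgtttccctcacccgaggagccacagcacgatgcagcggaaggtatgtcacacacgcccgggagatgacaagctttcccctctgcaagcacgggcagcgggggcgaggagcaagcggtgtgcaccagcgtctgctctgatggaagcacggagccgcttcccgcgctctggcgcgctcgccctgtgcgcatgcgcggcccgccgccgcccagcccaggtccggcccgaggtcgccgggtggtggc

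Cish held 2 STAT-type matches, TTCCTGGAA at the first base of the transcript and TTCTTGGAA that began 11 bases further on. Socs3 held a single one, TTCTTAGAA, that began 154 bases before the start. Socs1 held 2 interferon-type matches, GAAAGAGAA and GAAACCGAA, which overlap each other and began 83 and 77 bases before the start. The Socs4 window held none, nor did any of the 4 windows hold GGGANNTTC (kB-type) or TGANTCA (AP-1-type), and no match of one motif shared letters with another motif. Searched on both strands from 250 bases before to 30 after the start, TTCNNNGAA stood in 7.83% and GAAANNGAA in 8.06% of 32851 RefSeq promoters, with 2 or more matches in 0.408% and 0.569%. GGGANNTTC stood in 3.65% and TGANTCA in 7.46%. A match of letters is a description and not a bound site. For Cish and Socs3 the RefSeq start lay inside the gene as GENCODE M21 draws it, since that annotation has transcripts starting further upstream.

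With nApoE4, 6 of the 8 SOCS genes were higher than in the controls and 1 was lower, at an adjusted p below 0.05 in the edgeR quasi-likelihood test. Among all 14240 genes tested 57.2% passed, 28.6% higher and 28.6% lower, so a pass alone was common. Whether the family differed from all genes was not tested. Socs1, Socs3 and Cish changed by more than 2-fold, 3 of the 8 genes beside 10.2% of all genes that rose by that much. Exposure to nApoE3 gave 5 higher and 2 lower of the 8, beside 33.1% higher and 34.6% lower of 14817 genes (67.7% in all), with the same 3 genes more than 2-fold up beside 9.6% of all genes. The median log2 fold change over the 8 genes was 0.60 with nApoE4 and 0.39 with nApoE3, beside 0.0013 and -0.0026 over all genes tested. The 8 genes thus fell into 3 that rose several-fold, 4 with smaller or mixed changes, and Socs6, which fell with both fragments. Estimates of Socs6 and of these 4 stayed under 2-fold in either direction.

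**Figure D1:**
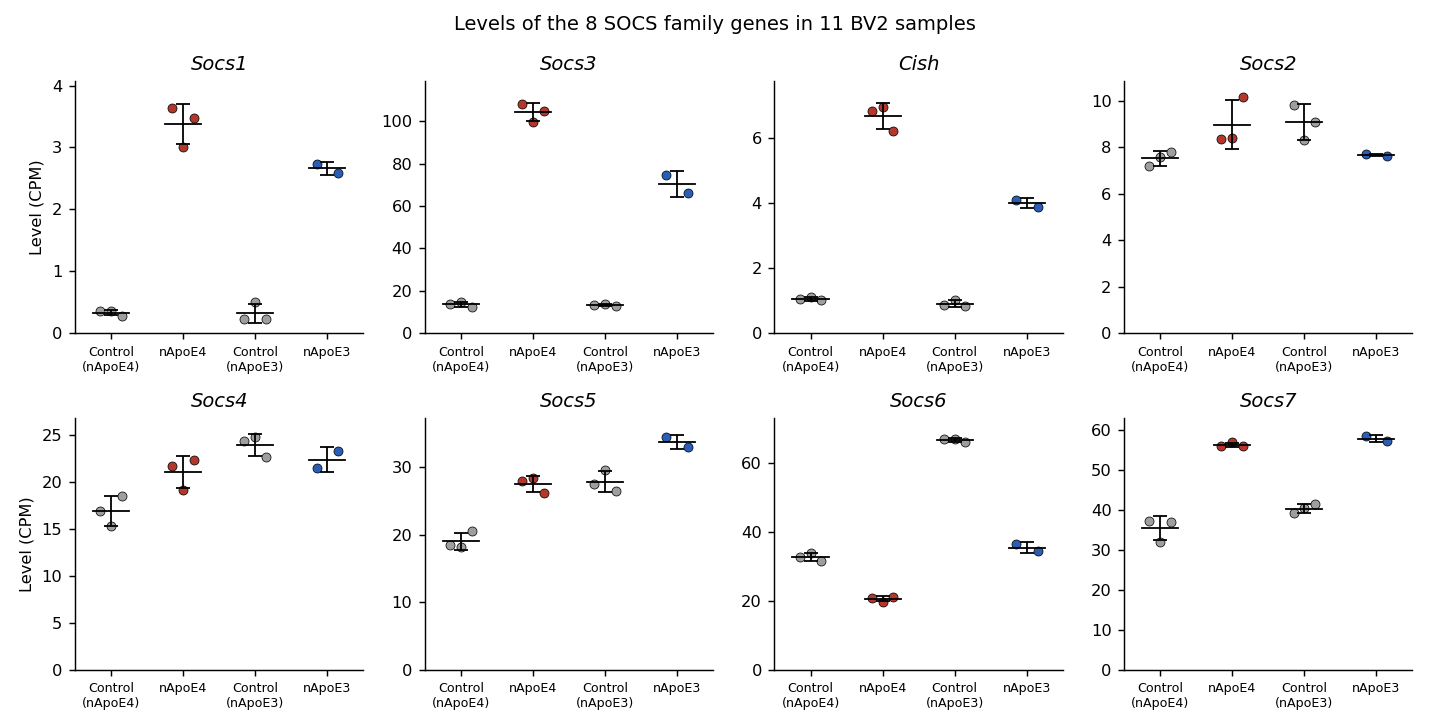
Level of each SOCS family gene in every sample. Each point is 1 sample, the y axis is CPM after TMM scaling over the 11 samples on a linear axis from 0, wide bars are group means and whiskers are 1 SD (3 samples a group, 2 for nApoE3). Socs1, Socs3 and Cish stand far above both control groups, Socs6 stands below them within each experiment, and the Socs6 controls of the nApoE3 experiment lie at 66.0 to 66.9 CPM against 31.4 to 33.8 in the other experiment.

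Socs3, which binds the gp130 receptor chain and JAKs and limits signalling by the interleukin-6 family, rose several-fold with both fragments (GENCODE M21 on GRCm38: chr11:117966079-117970047, minus strand, 2 exons in its longest transcript). It stood at 13.8, 14.7 and 12.4 CPM in ControlA and at 108, 99.9 and 105 CPM with nApoE4. In the other experiment it stood at 13.3, 13.7 and 12.6 CPM in ControlB and at 74.9 and 66.0 CPM with nApoE3. Control samples of both experiments lay in the same narrow band and every treated sample lay far above it, from 3728 to 4645 reads against 577 to 938. The log2 fold change was 2.94 ± 0.076 (SE, 3 against 3) with nApoE4, a 7.69-fold rise (95% interval 6.83 to 8.66, adjusted p = 2.03e-09). With nApoE3 it was 2.41 ± 0.055 (SE, 2 against 3), a 5.32-fold rise (4.89 to 5.78, adjusted p = 1.83e-12). Socs3 had the 309th highest log2 fold change of 14240 genes with nApoE4 and the 465th highest of 14817 with nApoE3.

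Socs1, which blocks the catalytic site of JAKs and is the main brake on interferon signalling, rose by the largest factor of the 8 but from the lowest level per kb in both control groups (chr16:10782240-10785536, minus strand, 2 exons). ControlA held 15, 16 and 13 reads and the nApoE4 samples 156, 125 and 138. ControlB held 16, 31 and 13 reads and the nApoE3 samples 159 and 146. As levels these were 0.279 to 0.357 CPM rising to 3.01 to 3.64 CPM, and 0.227 to 0.501 CPM rising to 2.59 and 2.73 CPM, with no overlap between treated and control samples. Replicate 2 of ControlB held about as many Socs1 reads as the other samples of its group together. The log2 fold change was 3.35 ± 0.19 (SE) with nApoE4, or 10.2-fold (95% interval 7.60 to 13.8, adjusted p = 3.60e-07), and 3.05 ± 0.27 with nApoE3, or 8.27-fold (5.52 to 12.4, adjusted p = 5.72e-07). Leaving out ControlB replicate 2 raised the latter to 3.52. The wide intervals go with control counts of 13 to 31 reads.

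Cish, the founding member of the family and a target of STAT5 that restrains interleukin-2 and growth hormone receptors, followed the same course at a low level (chr9:107296026-107302784, plus strand, 3 exons in its longest transcript). ControlA samples stood at 1.03, 1.12 and 1.01 CPM and nApoE4 samples at 6.83, 6.95 and 6.22 CPM. ControlB samples stood at 0.850, 1.02 and 0.834 CPM and nApoE3 samples at 4.09 and 3.88 CPM. The treated samples lay above all controls, and the nApoE4 samples above the nApoE3 samples. The log2 fold change was 2.67 ± 0.12 (SE) with nApoE4, or 6.35-fold (95% interval 5.24 to 7.71, adjusted p = 9.01e-08), and 2.14 ± 0.15 with nApoE3, or 4.40-fold (3.52 to 5.50, adjusted p = 5.96e-08).

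The proportion of Socs3 to Cish was higher in every treated sample than in its controls, and that of Socs3 to Socs1 had a lower mean with each fragment, neither of which was tested. There were 12.3 to 13.3 reads of Socs3 for each read of Cish in ControlA, 14.4 to 16.8 with nApoE4, 13.4 to 15.6 in ControlB, and 17.0 and 18.3 with nApoE3. Reads of Socs3 per read of Socs1 averaged 41.6 ± 2.67 (SD, n = 3) in ControlA and 31.0 ± 1.89 (n = 3) with nApoE4, and 46.8 ± 17.0 (n = 3) in ControlB and 26.5 ± 1.31 (n = 2) with nApoE3. These ratios are of counts within a sample, not corrected for transcript length, and the spread in ControlB came with its 13 to 31 Socs1 reads.

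**Figure D2:**
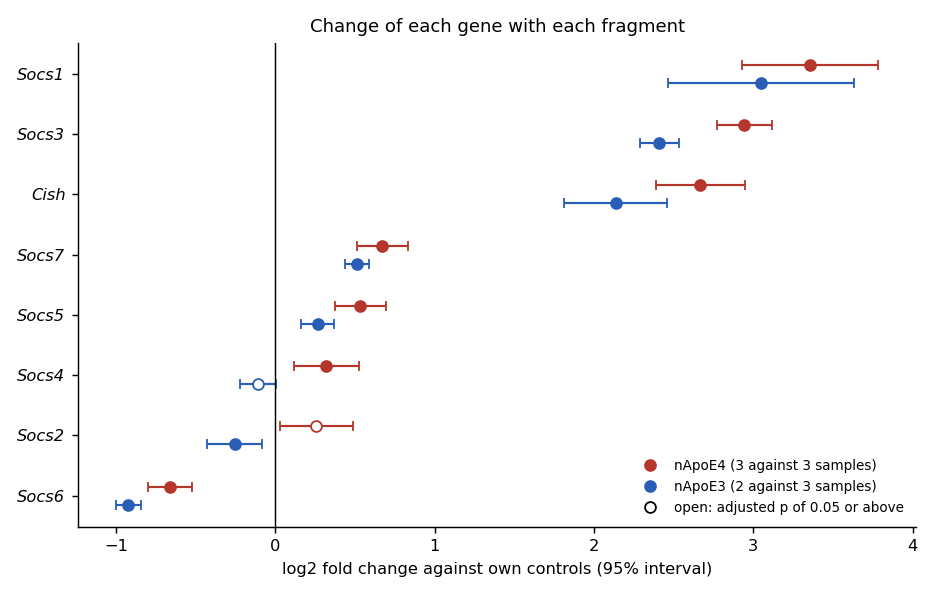
Log2 fold change of each SOCS family gene against the controls of its own experiment, with 95% intervals from the edgeR quasi-likelihood fit. Red is nApoE4 (3 against 3 samples), blue is nApoE3 (2 against 3), and open circles mark an adjusted p of 0.05 or above. Socs1, Socs3 and Cish lie between 2.14 and 3.35, Socs6 lies at -0.66 and -0.92, and the nApoE4 point is the higher of the pair for every gene.

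Socs7 and Socs5 rose with both fragments by less than 2-fold. Socs7, which binds the adaptor NCK and insulin receptor substrates (chr11:97362551-97398542, plus strand, 10 exons in its longest transcript), was at 37.3, 32.0 and 37.0 CPM in ControlA and at 56.0, 56.9 and 55.9 CPM with nApoE4. It was at 39.2, 40.4 and 41.4 CPM in ControlB and at 58.5 and 57.2 CPM with nApoE3. Treated and control samples did not overlap in either experiment, and the log2 fold change was 0.67 ± 0.070 (SE, adjusted p = 2.74e-05) with nApoE4 and 0.52 ± 0.034 (adjusted p = 4.32e-08) with nApoE3.

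Socs5, which acts on the epidermal growth factor receptor and on interleukin-4 signalling (chr17:87107679-87137839, plus strand, 3 exons in its longest transcript), was at 18.5, 18.2 and 20.5 CPM in ControlA and at 27.9, 28.4 and 26.2 CPM with nApoE4. It was at 27.6, 29.6 and 26.5 CPM in ControlB and at 34.4 and 33.0 CPM with nApoE3. Each treated group lay above its own controls, yet the ControlB samples stood as high as the nApoE4 samples. The log2 fold change was 0.53 ± 0.071 (SE, adjusted p = 1.50e-04) with nApoE4 and 0.27 ± 0.047 (adjusted p = 2.91e-04) with nApoE3. Gm30510 overlaps Socs5 in the RefSeq annotation and reads shared by both genes could have been dropped in counting. Gm30510 stood at 0.646 ± 0.287 CPM in ControlA and 1.38 ± 0.656 CPM (SD, n = 3 each) with nApoE4. Its log2 fold change was 1.09 (adjusted p = 0.0429), a call lost without ControlA replicate 1 or 2 or ApoE4 replicate 2 or 3 (0.64 to 1.2). With nApoE3 it went from 0.804 to 1.49 CPM (log2 fold change 0.88, adjusted p = 0.00140). The latter call was lost only with all 11 samples in one fit (0.89, adjusted p = 0.0525).

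Socs4, the closest relative of Socs5 (chr14:47276931-47296102, plus strand, 2 exons), was at 16.9, 15.3 and 18.4 CPM in ControlA and at 21.6, 19.1 and 22.3 CPM with nApoE4. It was at 24.3, 24.7 and 22.6 CPM in ControlB and at 21.4 and 23.3 CPM with nApoE3. The nApoE4 samples lay just above their controls, while the nApoE3 samples and theirs overlapped. Socs4 rose by 0.32 ± 0.091 on the log2 scale (SE, adjusted p = 0.0129) with nApoE4, a call that was lost without ApoE4 replicate 3 (0.28, adjusted p = 0.0594). Its log2 fold change with nApoE3 was -0.11 ± 0.051 (95% interval -0.22 to 0.0067, adjusted p = 0.0878), and it passed without ControlB replicate 3 (-0.14, adjusted p = 0.0286) or ApoE3 replicate 2 (-0.17, adjusted p = 0.0320).

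Socs2, the regulator of growth hormone receptor signalling (chr10:95385362-95417180, minus strand, 5 exons in its longest transcript), was at 7.19, 7.56 and 7.80 CPM in ControlA and at 8.35, 8.37 and 10.2 CPM with nApoE4. It was at 9.83, 8.29 and 9.10 CPM in ControlB and at 7.70 and 7.62 CPM with nApoE3. No treated sample lay within the range of its controls, above them with nApoE4 and below them with nApoE3. The nApoE4 value did not pass the test (log2 fold change 0.26 ± 0.10, 95% interval 0.027 to 0.49, adjusted p = 0.0554). With nApoE3 Socs2 fell by 0.25 ± 0.079 on the log2 scale (SE, adjusted p = 0.0133). That call was lost without ControlB replicate 1 (-0.19, adjusted p = 0.0746) or ApoE3 replicate 2 (-0.25, adjusted p = 0.0552).

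Socs6, which targets the receptor KIT and insulin signalling (chr18:88665224-88927481, minus strand, 3 exons in its longest transcript), fell with both fragments. It was at 32.5, 33.8 and 31.4 CPM in ControlA and at 20.8, 19.7 and 21.1 CPM with nApoE4. It was at 66.9, 66.9 and 66.0 CPM in ControlB and at 36.4 and 34.2 CPM with nApoE3. Treated samples lay below their own controls in both experiments, but the nApoE3 samples lay above the ControlA samples. The log2 fold change was -0.66 ± 0.062 (SE, adjusted p = 1.26e-05) with nApoE4, 1.58-fold lower, and -0.92 ± 0.035 (adjusted p = 1.95e-10) with nApoE3, 1.89-fold lower. Only 13.7% and 7.98% of the genes tested in the respective comparison had a lower log2 fold change.

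The 8 genes were next compared with one another as CPM per kb of the longest GENCODE M21 transcript, a level that allows genes of different length to be set side by side but depends on the transcript chosen. In ControlA, Socs6 (5.39 ± 0.200 CPM per kb, SD, n = 3), Socs3 (5.34 ± 0.468) and Socs7 (5.05 ± 0.423) led with overlapping sample ranges. Socs5, Socs4, Socs2, Cish and Socs1 followed in that order with no overlap between neighbours, down to 0.113 ± 0.0151 for Socs1. By the length of the median transcript Socs3 led ControlA instead, and with no length Socs7 did. In ControlB, Socs6 led alone at 11.03 ± 0.0889, followed by Socs5 and Socs7, whose ranges overlapped, then Socs3, Socs4, Socs2, Cish and Socs1.

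With either fragment Socs3 took first place, at 40.9 ± 1.66 CPM per kb with nApoE4 (n = 3) and 27.6 ± 2.44 with nApoE3 (n = 2). Socs7, Socs5, Socs6, Socs4 and Socs2 followed in the same order in both treated groups. The order of these 5 depended on the length: by the median transcript Socs7 came second with nApoE4 and Socs6 with nApoE3, and the orders of the treated groups also differed with no length, while Socs3 was first with every choice. Cish came before Socs1 with nApoE4 (1.42 ± 0.0834 against 1.16 ± 0.113) and after it with nApoE3 (0.848 ± 0.0318 against 0.915 ± 0.0357), and in neither group did the sample ranges of these neighbours overlap. By the median transcript, or with no length, Cish came before Socs1 with nApoE3 too. The family as a whole summed to 24.5 ± 0.206 CPM per kb in ControlA and 66.0 ± 1.92 with nApoE4, and to 33.9 ± 0.675 in ControlB and 55.8 ± 2.94 with nApoE3.

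Socs3 made up 21.8% ± 2.07 of the summed family level in ControlA and 61.9% ± 0.731 with nApoE4 (SD, n = 3 each), and 15.2% ± 0.357 in ControlB (n = 3) and 49.4% ± 1.78 with nApoE3 (n = 2). Socs6 went the other way, from 22.1% ± 0.985 to 5.16% ± 0.109 with nApoE4 and from 32.6% ± 0.431 to 10.5% ± 0.0982 with nApoE3. Cish and Socs1 each stayed a small part, at no more than 2.15% for Cish and 1.76% for Socs1 in any group mean. The shares depend on the length used: Socs3 reached 78.0% with nApoE4 by the length of the median transcript and 41.9% when length was left out.

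**Figure D3:**
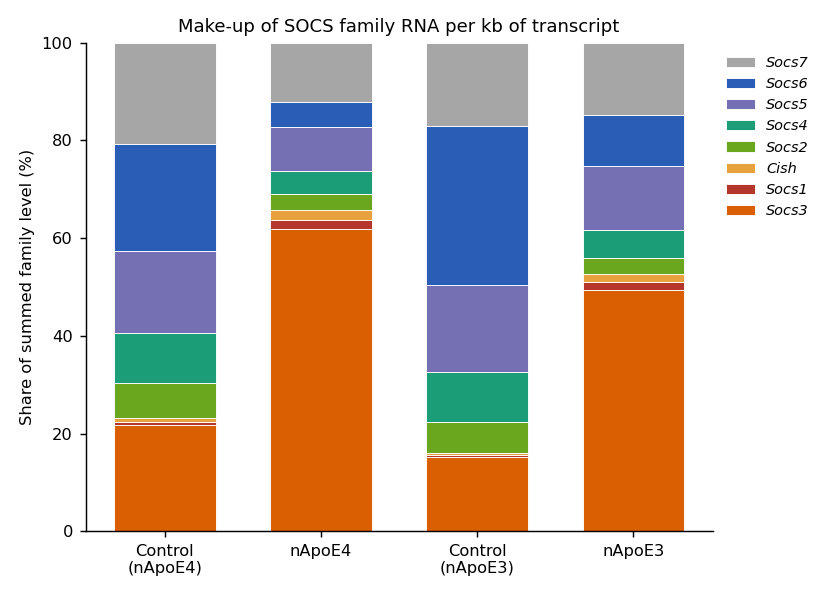
Make-up of the SOCS family in each group. Each bar stacks the mean share of every gene in the summed level (CPM per kb of longest transcript, y axis in percent of the family sum) over 3 samples, or 2 for nApoE3. The Socs3 segment widens from 21.8% to 61.9% with nApoE4 and from 15.2% to 49.4% with nApoE3, while the Socs6 segment narrows from 22.1% to 5.16% and from 32.6% to 10.5%.

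To compare the fragments, the log2 response to nApoE3 was subtracted from that to nApoE4, each against its own controls, in a single edgeR model of all 11 samples. All 8 estimates were above 0, with a median of 0.36 on the log2 scale beside 0.0025 over 15287 genes tested. Socs2, Socs3, Socs4, Socs6 and Cish passed (5 of 8 higher, beside 14.4% of all genes higher and 13.9% lower, 28.3% in all), and none of them differed by more than 2-fold, as 5.93% of all genes did. Socs3 had a difference of 0.52 ± 0.10 (SE, adjusted p = 0.00213), or 1.43-fold (95% interval 1.23 to 1.67), and remained past the threshold under each of 16 other settings (adjusted p 9.80e-05 to 0.0230). Cish had the same estimate with a wider error, 0.52 ± 0.18 (adjusted p = 0.0438), and passed under 5 of the 16. Its call was lost, at adjusted p of 0.0553 to 0.134, on leaving out any of 8 samples: replicates 1 and 3 of ControlA, replicates 1 and 2 of ApoE4, replicates 1 and 2 of ControlB, or either ApoE3 replicate. Socs2 differed by 0.50 ± 0.14 (adjusted p = 0.0151), Socs4 by 0.41 ± 0.11 (adjusted p = 0.0161) and Socs6 by 0.25 ± 0.071 (adjusted p = 0.0188).

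Several of these calls were lost on leaving out an nApoE3 sample, which leaves 1 sample in that group, so less can be detected. The Socs2 call was lost without either, though its estimate hardly moved from 0.50. It was 0.51 without ApoE3 replicate 1 and 0.49 without ApoE3 replicate 2. The Socs4 call was lost without ApoE3 replicate 1 (0.36) and that of Socs6 without ApoE3 replicate 2 (0.20). Socs5 (0.26 ± 0.091, 95% interval 0.059 to 0.45, adjusted p = 0.0518), Socs7 (0.15 ± 0.083, -0.034 to 0.33, adjusted p = 0.220) and Socs1 (0.30 ± 0.38, -0.53 to 1.13, adjusted p = 0.613) did not pass. Socs5 did pass without ControlA replicate 3 (adjusted p = 0.0142), ApoE4 replicate 3 (adjusted p = 0.0425) or ControlB replicate 3 (adjusted p = 0.0472). The Socs1 estimate turned to -0.18 without ControlB replicate 2, the sample with 31 reads.

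The 2 control groups, which received no fragment, already differed. ControlB was higher than ControlA for 4 of the 8 genes, beside 34.4% of 14249 genes higher and 34.9% lower (69.3% in all). Socs6 was 2.02-fold higher (log2 difference 1.02 ± 0.046, adjusted p = 1.03e-06), past the 2-fold mark that 5.4% of all genes passed upward, with Socs5 1.45-fold (0.53, adjusted p = 1.45e-04), Socs4 1.40-fold (0.49, adjusted p = 5.56e-04) and Socs2 1.19-fold (0.26, adjusted p = 0.0231). The Socs2 call was lost without ControlA replicate 1 (0.23, adjusted p = 0.0764), ControlB replicate 1 (0.21, adjusted p = 0.0860) or ControlB replicate 3 (0.26, adjusted p = 0.0577). Socs7 missed the threshold (0.17, 95% interval 0.013 to 0.33, adjusted p = 0.0527) and passed on leaving out any one ControlA replicate (adjusted p of 0.0435, 0.0351 and 0.0412). Socs3 (-0.063, -0.24 to 0.12), Socs1 (-0.060, -0.91 to 0.79) and Cish (-0.24, -0.62 to 0.14) did not pass, with unadjusted p of 0.439, 0.875 and 0.182. Socs1, Socs3 and Cish, the 3 genes with the largest responses, were thus not among those called between the controls. For Socs6 the estimate between controls was larger in size than its response to either fragment.

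**Figure D4:**
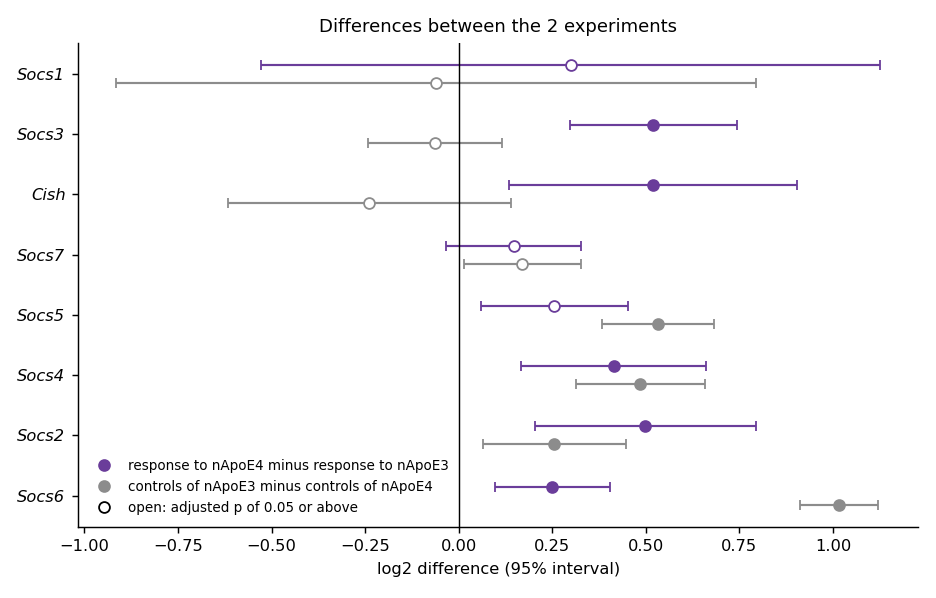
Differences between the experiments for each SOCS family gene, on the log2 scale with 95% intervals. Purple is the response to nApoE4 minus the response to nApoE3, grey is ControlB minus ControlA, and open circles mark an adjusted p of 0.05 or above. Every purple point is above 0, from 0.15 for Socs7 to 0.52 for Socs3 and Cish, and the largest grey value is 1.02 for Socs6.

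The genes around the family were described from 8 lists holding 133 genes of the JAK-STAT and SOCS pathway, each given by its counts beside the 28.6% higher and 28.6% lower of all genes with nApoE4 and the 33.1% and 34.6% with nApoE3. Of 22 cytokines that signal through JAKs, 9 passed the filter on low counts with nApoE4 and 10 with nApoE3, and 8 rose with each fragment. Between the control groups, only 5 of the 22 passed that filter. Cytokines with few control reads passed it through the treated samples and had to be higher there, so nothing is read from this count. Il12b, the shared subunit of interleukin-12 and interleukin-23, went from 3 or 4 reads a sample in ControlA to 2035 to 2305 with nApoE4. It went from 5 in each ControlB sample to 887 and 1150 with nApoE3. Csf3, the neutrophil growth factor G-CSF, went from 1 or 2 reads to 147 to 193, and from 4 to 10 reads to 1366 and 1511. Il27, a subunit of interleukin-27, went from 3 to 7 reads to 667 to 804, and from 7 to 10 reads to 501 and 626. Another 8 of the 22 were listed at 0 in every sample, among them Il6, Csf2 and Ifng, and given the 0 for B2m no level is drawn from this.

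The receptor chains listed for the JAK-STAT pathway moved both ways. With nApoE4, 10 of 23 tested rose and 8 fell (median log2 fold change 0.061), and with nApoE3 14 of 21 rose and 4 fell (median 0.42). Il15ra, the interleukin-15 receptor alpha chain, went from 8.39 to 40.9 CPM with nApoE4 (2.29, adjusted p = 6.16e-09) and from 6.99 to 32.7 CPM with nApoE3 (2.22, adjusted p = 1.11e-12). Il6ra, the interleukin-6 receptor alpha chain, fell from 41.5 to 12.8 CPM (-1.69, adjusted p = 2.38e-07) and from 38.0 to 20.1 CPM (-0.93, adjusted p = 4.57e-10). Il21r, the interleukin-21 receptor, rose at a low level, by 1.16 and 0.93 on the log2 scale. Il7r, Csf2rb and Csf2rb2, receptor chains for interleukin-7 and for the granulocyte-macrophage factor group, fell with nApoE4 and rose with nApoE3. Of these, Il7r stood at 15.1 ± 0.620 CPM in ControlA and 0.490 ± 0.0624 CPM in ControlB (SD, n = 3 each), and moved to 6.58 with nApoE4 and 1.16 with nApoE3. The control groups also differed for Csf2rb and Csf2rb2. ControlB minus ControlA was -1.37 and -1.43 on the log2 scale (adjusted p = 7.29e-07 and 1.11e-06, edgeR quasi-likelihood test). In size these exceeded the responses to nApoE4 and nApoE3, which were -0.76 and 0.32 for Csf2rb and -0.58 and 0.42 for Csf2rb2.

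Among the kinases, Jak2 rose from 25.8 to 114 CPM with nApoE4 (log2 fold change 2.15, adjusted p = 2.43e-09) and from 42.6 to 140 CPM with nApoE3 (1.71, adjusted p = 1.12e-13). Tyk2, which serves interferon and interleukin-12 receptors, rose by 1.44 and 1.16, and Jak3, the partner of the common gamma chain, fell by 0.44 and 0.30. In all 2 of 4 JAKs rose and 1 fell with nApoE4, and 3 rose and 1 fell with nApoE3. Of the STATs, 4 of 6 tested rose and 2 fell with nApoE4, and 3 of 7 rose and 3 fell with nApoE3.

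Stat2, which carries type I interferon signals, rose with both fragments. It went from 14.8 to 71.4 CPM with nApoE4 (2.27, adjusted p = 1.15e-08) and from 13.9 to 84.9 CPM with nApoE3 (2.61, adjusted p = 6.02e-14). Stat3, the STAT of the interleukin-6 family, rose by 0.24 with nApoE4 (46.2 to 54.6 CPM, adjusted p = 0.00462) and by 1.28 with nApoE3 (47.7 to 117 CPM, adjusted p = 1.11e-12). This order is the reverse of that of Socs3, whose log2 rise was 2.94 with nApoE4 and 2.41 with nApoE3, and for both genes the difference between the responses passed the test (adjusted p = 1.67e-07 for Stat3 and 0.00213 for Socs3). Stat5a rose by 0.44 with nApoE4 and fell by 0.59 with nApoE3 (adjusted p = 2.92e-04 and 4.08e-07), whereas Cish rose with both. These are RNA levels of the STATs and not their activity, which was not measured. A link between any STAT and Socs3 or Cish was not tested.

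Other inhibitors of the same pathway did not share one direction. With nApoE4 5 of 18 tested rose and 5 fell, and with nApoE3 6 of 17 rose and 8 fell (median log2 fold changes -0.074 and -0.056). Usp18, which blocks the type I interferon receptor, rose from 5.10 to 28.7 CPM with nApoE4 (2.50, adjusted p = 1.56e-08) and from 5.41 to 95.6 CPM with nApoE3 (4.15, adjusted p = 1.71e-13). Ptpn6, the phosphatase SHP-1, fell by 0.76 and 0.52 on the log2 scale, and Sh2b2, an adaptor of JAK2 and insulin receptors, fell by 0.72 and 0.69.

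The ubiquitin ligase that the SOCS box recruits was followed through the RNA of 10 genes listed as its parts or partners. Of these 4 rose and 1 fell with nApoE4, while 8 rose with nApoE3 and the other 2 did not pass (median log2 fold changes 0.020 and 0.16). Ube2f, a neddylation enzyme of Cul5, rose from 57.7 to 134 CPM (1.22, adjusted p = 1.52e-06) and from 68.3 to 168 CPM (1.30, adjusted p = 6.73e-12). The scaffolds Cul5 (0.35 and 0.30) and Cul2 (0.53 and 0.19) rose by less than 2-fold with both fragments.

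Of 27 other proteins with a SOCS box, 7 of 20 tested rose and 8 fell with nApoE4, and 6 of 19 rose and 8 fell with nApoE3 (median log2 fold changes 0.13 and -0.11). Asb10 fell the most of those named, from 11.5 to 2.12 CPM (-2.43, adjusted p = 6.00e-08) and from 16.0 to 1.90 CPM (-3.07, adjusted p = 6.29e-12). Rab40c fell by 1.16 and 0.79, and Asb1 rose by 0.80 and 1.14. Asb7 (0.38 and -0.23) and Wsb2 (-0.29 and 0.090) passed in opposite directions. Among 13 other partners of SOCS proteins, 3 of 9 tested rose and 3 fell with nApoE4 and 3 of 9 rose and 4 fell with nApoE3 (median log2 fold changes 0.087 and 0.086). The growth factor receptor Igf1r fell by 0.93 and 0.94, the adaptor Nck1 rose by 0.78 and 0.63, and the adaptor Tirap fell by 0.48 and 0.10. Vav1, an exchange factor that SOCS1 can send for degradation, fell by 0.15 with nApoE4 and rose by 0.21 with nApoE3. The Vav1 fall was lost (-0.18 to -0.14) without ControlA replicate 1 or 3 or any ApoE4 replicate. The Tirap fall with nApoE3 was lost (-0.11 to -0.084) without ControlB replicate 1 or 3 or either ApoE3 replicate, and with DESeq2 (adjusted p = 0.186).

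Neighbouring genes moved in both directions, as all genes tested did (28.6% higher and 28.6% lower with nApoE4, 33.1% and 34.6% with nApoE3). Of 19 nearest, overlapping or named neighbours, 12 were tested with nApoE4, of which 5 rose and 4 fell. With nApoE3, 13 were tested, of which 4 rose and 4 fell. Gm41647, which the study lists among its most raised genes, counts among the rises with each fragment. It had almost no control reads, passed the filter on low counts through the treated samples and so had to be higher. Wdhd1, a replication factor that lies 58 bases from Socs4 in RefSeq so that the Socs4 window printed above reaches into it, fell by 1.14 and 1.46 (84.1 to 38.0 CPM and 81.3 to 29.7 CPM). Socs4 itself had log2 fold changes of 0.32 and -0.11. Pgs1, 15960 bases from Socs3, rose by 0.75 and 0.61 on the log2 scale. Rttn, the gene next to Socs6 at 77371 bases, fell by 0.62 and 1.16, and like Socs6 had a higher mean in ControlB (52.1 ± 1.29 CPM) than in ControlA (30.8 ± 4.28 CPM, SD, n = 3 each).

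On either side of Cish, Mapkapk3 fell by 0.85 and 0.72, and Hemk1 rose by 0.40 with nApoE4 and fell by 0.21 with nApoE3 (adjusted p = 0.00568 and 0.0177). The latter call was lost without ControlB replicate 3 (-0.19, adjusted p = 0.0529) or ApoE3 replicate 1 (-0.14, adjusted p = 0.160). Clec16a, 38929 bases from Socs1, rose by 0.60 with nApoE4 (adjusted p = 2.33e-05) and had a log2 fold change of -0.0023 with nApoE3 (adjusted p = 0.964). Gm41647, a RefSeq gene model 68373 bases beyond Socs5 (chr17:87206021-87206977), had 0 reads in every ControlA sample and 34, 35 and 46 with nApoE4, at least 13.9-fold higher against a floor of 3 reads a sample. It had 0, 0 and 1 reads in ControlB and 28 and 29 with nApoE3, while Socs5 rose by 0.53 and 0.27 on the log2 scale.

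For the 4 SOCS genes whose group means spanned at least 1 log2 unit, the 3 genes of closest course over the 11 samples were found by the root mean square (RMS) difference of centred log2 CPM. Socs3 lay closest to Lacc1 (RMS 0.0957), an enzyme of inflammatory macrophages, then to Birc3 (0.156) and Malt1 (0.177), both known from signalling to NF-kappaB. Lacc1 rose from 52.9 to 399 CPM with nApoE4 and from 53.7 to 263 CPM with nApoE3. Cish lay closest to Malt1 (0.101), then Dram1 (0.115) and St3gal3 (0.119). Malt1 rose from 58.7 to 375 CPM and from 52.3 to 229 CPM.

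Socs6 lay closest to Foxo4 (RMS 0.0759), a transcription factor held in check by insulin signalling, then Etaa1 (0.0787) and Nasp (0.0858), both known from DNA replication and chromatin. Foxo4 fell from 27.1 to 16.4 CPM and from 55.5 to 27.5 CPM. The nearest genes of Socs1 were farther off (Dlgap3 0.278, Trim13 0.283 and Gm30073 0.285). Dlgap3 and Gm30073 did not pass the filter on low counts between the control groups. Dlgap3 held 0 to 2 reads a sample in ControlA and 1 to 4 in ControlB, near the floor, so little rests on its likeness. No gene lay within 0.25 of Socs1, against 20 for Socs3, 27 for Cish and 190 for Socs6. Within the family, Cish was the 6th nearest of 15286 genes to Socs3 (RMS 0.186) and Socs3 the 16th nearest to Cish. When group means replaced single samples, 1 of the 3 nearest genes of Socs3, 2 of Socs6, 2 of Cish and 0 of Socs1 were the same.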

How the data were processed

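The deposited files gave read counts per gene symbol and sample, which the authors had made, by the tools listed in the labels, with Trim Galore 0.5.0, HISAT2 2.1.0 and HTSeq 0.11.0 on GRCm38.p6. The strand setting of the counting was not given in the sources used here. Of all tallied reads 76.0 to 77.7% were counted on genes, 11.7 to 13.2% did not map to a single place and 3.24 to 3.56% were ambiguous between genes. These rows were left out of library sizes, so a read shared by paralogs or overlapping genes was lost. Floors cover counting error only, and the 95% intervals of fold changes come from the spread between samples in the edgeR fit.

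Raw counts were tested with edgeR 4.0.16 in R 4.3.3 (TMM scaling, filterByExpr, quasi-likelihood F test, Benjamini-Hochberg adjustment over all genes tested, called at adjusted p below 0.05), each fragment against its own controls. The difference between fragments was an interaction contrast over all 11 samples. SEs were taken as the absolute fold change (log2) over the root of its F value. Levels are CPM after TMM scaling over the 11 samples, and CPM per kb used the longest GENCODE M21 transcript because RefSeq transcript lengths were not used here. Likeness used log2 CPM with a prior count of 2. The fits were tested on simulated data. No 2 samples held identical counts.

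The members and lists were chosen with earlier results of these data known. Elob and Eloc were matched by their older symbols. All 8 SOCS genes were named. From each list the text names the 3 genes with the largest mean change among those that passed with one sign for nApoE4 and nApoE3, and every gene that passed with opposite signs. One gene that this rule names is not reported here. B2m and the cytokines listed at 0 were named after their values were seen. Neighbours are the nearest and overlapping genes in RefSeq (GRCm38.p6) that had a row in the files, and Gm41647. Alternatives were DESeq2 1.42.0, its size factors in edgeR, other filters on low counts, all 11 samples in one fit, a replicate block and leaving out each sample.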

Additional observations from a re-analysis of the deposited data

Results flagged for a closer look

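Between nApoE4 and nApoE3 the response, each against its own controls, differed in the interaction test for 5 SOCS genes: Socs3 (0.52 on the log2 scale), Cish (0.52), Socs2 (0.50), Socs4 (0.41) and Socs6 (0.25), with adjusted p of 0.00213, 0.0438, 0.0151, 0.0161 and 0.0188. In each the response to nApoE4 was the more positive. Of all genes tested 28.3% passed, 14.4% higher and 13.9% lower. Among these SOCS calls, only that of Socs3 was kept under each of the other settings.

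The other named genes listed here include those called in opposite directions with the 2 fragments. A difference between the responses was built into that choice, so its test adds no support to those calls. The response of Il7r to nApoE4 minus that to nApoE3 was -2.44, that of Csf2rb -1.09 and that of Csf2rb2 -1.01 (adjusted p = 2.68e-07, 5.48e-07 and 4.74e-06). For each of these receptor chains the control groups already differed, by more in size than the response to either fragment. Stat5a differed by 1.03 (adjusted p = 1.51e-06), Asb7 by 0.60 (adjusted p = 6.07e-04) and Hemk1 by 0.60 (adjusted p = 0.00298). Wsb2 differed by -0.39 (adjusted p = 0.00278) and Vav1 by -0.37 (adjusted p = 6.18e-04). Stat3 and Usp18, which rose with both fragments, rose less with nApoE4, with differences of -1.05 (adjusted p = 1.67e-07) and -1.65 (adjusted p = 2.70e-06). These genes were picked by name and not by a rule. Other named genes that moved one way with both fragments also passed, in either direction. Examples are Jak2 (0.43, adjusted p = 2.54e-04) and Stat2 (-0.35, adjusted p = 0.0139). Fragment and experiment cannot be told apart in any of these values. Groups of 2 or 3 samples were too small for the test of single outlying samples.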

How the results depend on the processing

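Calls on the 8 SOCS genes kept their direction and their side of the threshold in 363 of 408 values over the alternatives, all planned, lost significance in 24, gained it in 16 and changed sign in 5. The rises of Socs1, Socs3, Cish, Socs7 and Socs5 and the fall of Socs6 passed under every alternative run for both fragments. With all 11 samples in one fit, 1 of the 8 genes was called lower with nApoE3 instead of 2, and 1 to 3 were when single samples were left out. In the fit of all samples Socs2 with nApoE4 passed (0.25, adjusted p = 0.0308) and with nApoE3 did not (-0.25, adjusted p = 0.0527). In the test between fragments 2 to 6 of the 8 genes were higher when single samples were left out, and Cish also missed the threshold with DESeq2 (adjusted p = 0.0983) and with genes of at least 1 count (adjusted p = 0.0836). The sign changes all came from leaving out a sample and touched values that did not pass: the Socs1 difference between fragments ran from -0.18 to 0.51, and ControlB minus ControlA ran from -0.52 to 0.16 for Socs1 and from -0.13 to 7.46e-04 for Socs3. The cause was not tested. Over the other named genes 1250 values kept their call, and 26 lost it, all of Vav1, Gm30510, Wsb2, Tirap or Hemk1.

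Same-numbered samples did not deviate together (correlations of -0.072, -0.25 and -0.10 in the nApoE4 experiment, 0.0084 and -0.014 in the nApoE3 experiment), so the numbers were not shown to pair samples. With the replicate block, genes called in the test between fragments went from 4331 to 2307 and SOCS genes called from 5 to 2, with Socs2, Socs6 and Cish lost (adjusted p = 0.0625, 0.127 and 0.122). Socs4 with nApoE3 passed under the block (-0.14, adjusted p = 0.0251).

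By the median transcript length the Socs3 share of the family was 35.1% in ControlA, 78.0% with nApoE4, 25.1% in ControlB and 67.3% with nApoE3, and without length 10.8%, 41.9%, 7.23% and 30.1%. The Socs6 share was 23.8%, 4.35%, 36.0% and 9.58% by median length, and 25.8%, 8.26%, 36.6% and 15.1% without length. Both shares kept their direction of change. DESeq2 size factors moved the median of all genes by at most 0.0085 on the log2 scale. Depth limits Socs1, with 13 to 31 reads in control samples. Leaving out 1 ApoE3 sample left a lone sample that was assumed to vary like the other groups.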
